A study of Mus musculus with 16 samples.

Results

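Cytokines, chemokines and their receptors were followed in mouse liver through 79 genes with 83 probes, out of 6734 named genes and 9596 probes on the array. Membership was set by name alone: a probe belonged if its 1 platform symbol began with Ccl, Cxcl, Cxcr, Ccr and a digit, Il and a digit, Tnf, Ifn, Csf or Socs, with Ccr2 left out. A further 4 probes that carried several symbols, a name of this kind among them, were left out because their gene is not settled. All 79 genes were found by Entrez identifier in the RefSeq gene table.

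Messenger RNA from the livers of 8 mice was hybridised to 16 spotted cDNA arrays in 2 colours, 2 arrays for each mouse. The mice were female APOE3-Leiden transgenics, which carry a human apolipoprotein E variant that raises their plasma lipids on fat-rich food, bred to a nearly pure C57BL/6 background. From 10 weeks of age they were fed for 4 weeks a Western-type diet, with 15% fat and 0.25% cholesterol, to which 0.04% cafestol and 0.02% kahweol by weight had been added. These are the diterpenes of unfiltered coffee. The controls, stated as 7 mice, were of the same strain, sex and age on the same diet without the diterpenes, and their liver RNA was the Cy3 channel of every array. The sources used here do not say whether this RNA was pooled from all 7 mice or from fewer. The Cy5 channel held the RNA of 1 treated mouse. Both cafestol and kahweol were given together, so their shares in any difference cannot be told apart, and the mice carried the transgene in every group.

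Chemokines are small secreted proteins that draw leukocytes along a gradient, through receptors that couple to G proteins. Interleukins, interferons and colony-stimulating factors mostly signal through paired receptor chains, Janus kinases and STAT factors, a route that SOCS proteins damp. TNF and interleukin 1 act instead through adaptor proteins that lead to NF-kB, and in liver, where Kupffer cells are a main source of them, hepatocytes answer by changing the plasma proteins they secrete.

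Each deposited value is a log2 ratio of the channels, so 1 unit is a doubling and 0 is no difference. The sources used here do not say which channel is the numerator. Values are therefore called positive or negative, and no statement is made on which diet had more RNA. For orientation, the glutathione transferase Gstm1 had a mean of -2.48 and the bile acid enzyme Cyp7a1 a mean of 1.56, so a negative member lay on the side of Gstm1. No array had its dyes swapped, so a dye effect particular to a gene would have the same sign in every mouse. The ratios hold no level, so whether the liver's own cell types were present cannot be read from them, and in whole liver fewer cells of a type and less RNA per cell cannot be told apart. Values moved in steps, the smallest being 0.14, and 71.2% of the members' array values lay within 1 step of 0. Between 8094 and 9314 probes had a value on each array. The 2 arrays of 1 mouse correlated at 0.752 to 0.912 over all probes. SY and TP, the letters that open the mouse names, each covered 4 mice, and what they stand for is not stated.

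Of the 79 genes, 77 had a value in at least 6 mice and were tested. Ccl28, a mucosal chemokine, was measured in 4 mice at -0.26 to -0.069, and Tnfsf8, the ligand of CD30, in 2 mice at -0.14 each. On the mean per mouse, 37 of the 77 differed from 0 (limma against 0, n = 8 mice, adjusted p under 0.05 over 8348 genes and unnamed probes), 16 on the positive and 21 on the negative side. That is 48.1% of the members, against 43.4% of everything tested. By side it is 20.8% against 18.0% positive and 27.3% against 25.4% negative, so the members' shares lay near those of the whole array. The members' median was -0.041, and that of everything tested -0.017.

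The differences were small. Member means ran from -0.28 for Ccl2 to 0.40 for Il1rap, the latter a 1.32-fold difference between the channels. Only 6 members, 7.79%, lay beyond 1.2-fold, against 8.29% of everything tested. None lay beyond 0.50 from 0, where 103 genes and probes of the whole array did, or 1.23%. The median distance from 0 was 0.0995 for the members and 0.086 for everything tested. Against a difference of at least 1.2-fold, 0 members passed (limma's treat; 2 at an unadjusted p under 0.05, as did 3.89% of everything tested), while 1.47% of everything tested passed.

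**Figure D1:**
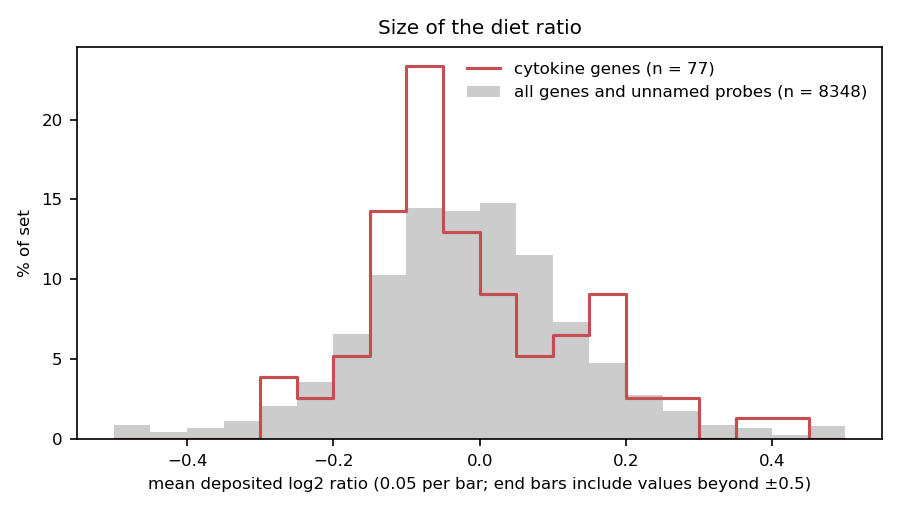
Distribution of the mean log2 ratio (horizontal axis, log2 units) over the 77 tested members and over all 8348 genes and unnamed probes, as percent of each set (vertical axis), in bars of 0.05 with values beyond 0.5 in the end bars. Both sets are fullest near 0 and the members end at -0.28 and 0.40, inside the range of the whole array.

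The test takes the control RNA as exact. If that RNA is instead treated, as an assumption, as an equal mix of the 7 control mice, each varying like the treated mice, 14 members passed (limma, adjusted p under 0.05, 21.6% of everything tested). On the positive side these were Il1rap, Cxcl12, Cxcl14, Socs6, Tnfrsf23, Socs1 and Il2rb. On the negative side they were Ccl2, Tnfaip8l2, Ifngr1, Ccl9, Tnfrsf4, Il4ra and Il16. A further limit is set by single mice: 26 of the 37 passed whichever mouse was left out, and the other 11 are named with their groups. Further calls were lost with other readings of the arrays. With arrays centred on their mean, Ccl5, Csf1, Ifngr2 and Tnfrsf1a did not pass (limma, adjusted p = 0.05001 to 0.0691). On the first array of each mouse alone, Ccl5, Ccl7 and Csf1 did not (limma, adjusted p = 0.0579 to 0.184). On the second alone, 12 did not: Ccl6, Ccl22, Csf1, Cxcl9, Cxcl10, Ifngr2, Il18rap, Il1b, Il2, Il3ra, Il7r and Tnfrsf1a (limma, adjusted p = 0.0527 to 0.228). All measured mice had the same sign in 11 members, and in 18.4% of everything tested.

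**Figure D2:**
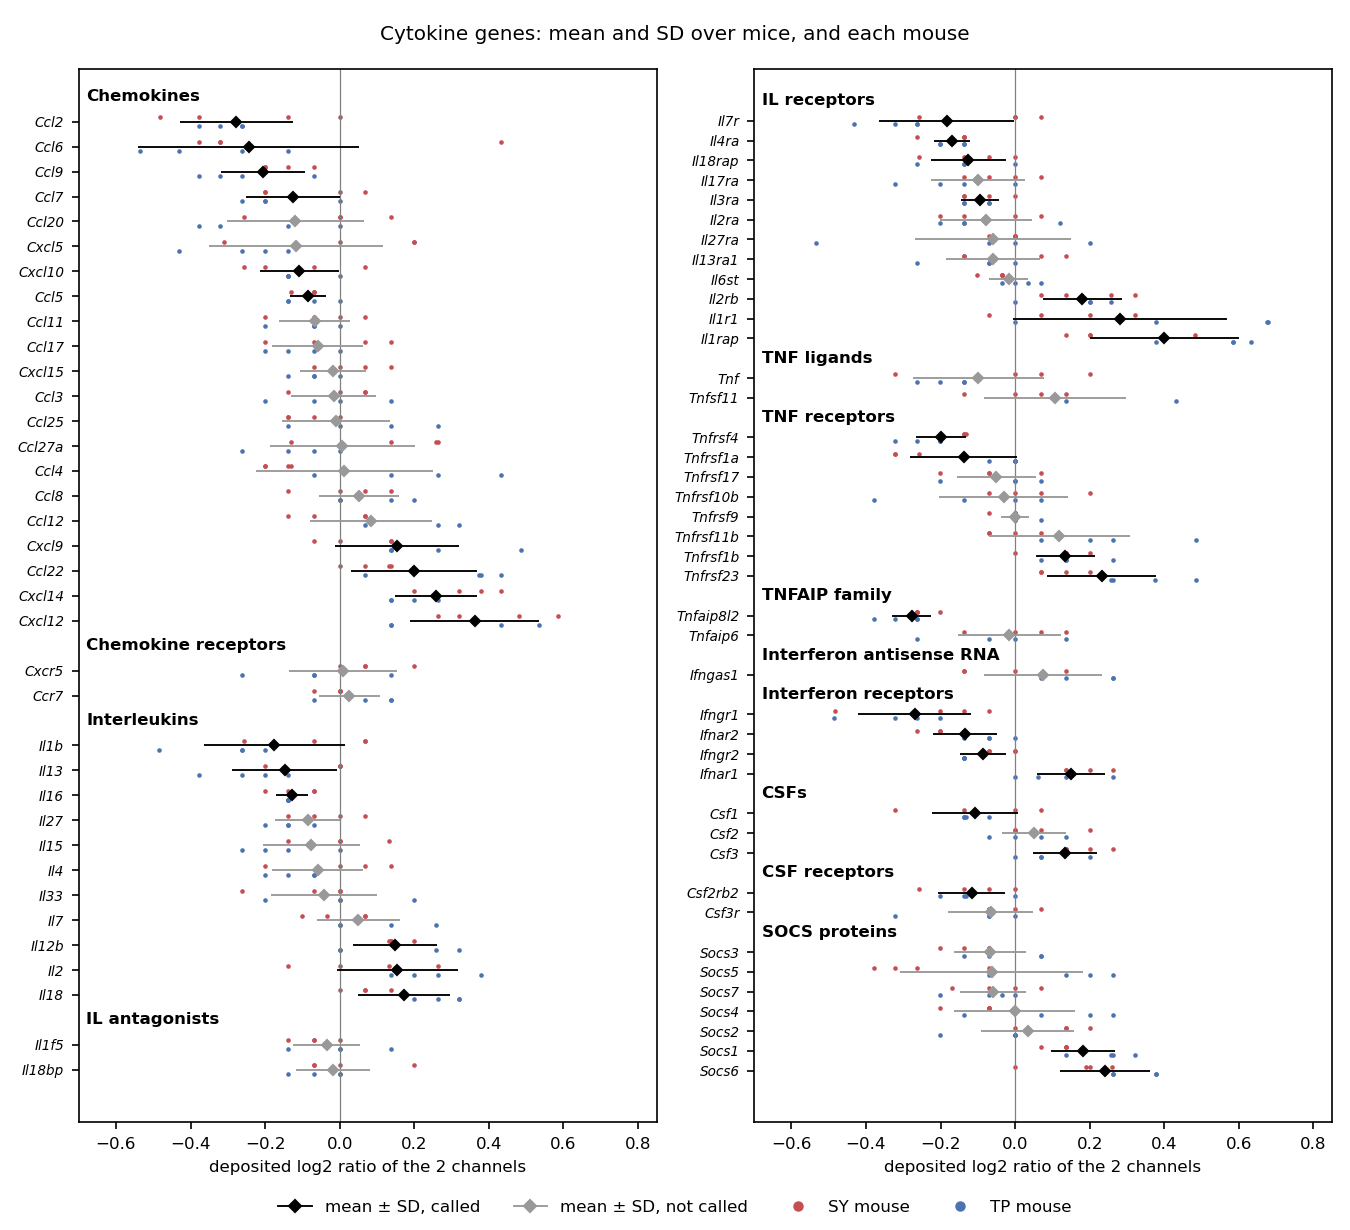
Log2 ratio (horizontal axis, log2 units) of the 77 tested members by role, with each mouse as a point (SY red, TP blue) and the mean and SD over mice as a diamond and bar, black where called and grey where not. Il1rap and Cxcl12 lie farthest on the positive side, at 0.40 and 0.36, and Ccl2 and Tnfaip8l2 farthest on the negative side, both at -0.28.

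The stretch of DNA around the start of transcription was available from RefSeq (build GRCm38.p6) for 58 of the 79 members, as 250 bases before and 50 after the start. Those of Il1rap, Socs1, Il4ra and Cxcl10 are shown, 5′ to 3′ on the gene's strand, because they hold letters of the 2 responses that cytokines are best known for. Capitals mark 2 motifs, both searched on both strands. The first is GAAA, any 2 bases and GAAA, the core of the interferon-stimulated response element. The second is GGG, any 3 bases and TTCC, a core of NF-kB sites. They also differ in side, Il1rap and Socs1 being positive and Il4ra and Cxcl10 negative. They lie at chr16:26581455-26581754 on the plus strand (Il1rap), chr16:10785487-10785786 on the minus strand (Socs1), chr7:125552021-125552320 on the plus strand (Il4ra) and chr5:92348840-92349139 on the minus strand (Cxcl10).
Il1rap: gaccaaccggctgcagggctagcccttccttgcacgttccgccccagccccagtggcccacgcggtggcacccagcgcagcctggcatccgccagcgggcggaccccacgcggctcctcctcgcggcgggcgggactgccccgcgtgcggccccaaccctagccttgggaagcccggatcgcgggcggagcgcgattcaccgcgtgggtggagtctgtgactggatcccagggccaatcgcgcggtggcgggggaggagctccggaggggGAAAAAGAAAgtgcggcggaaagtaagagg
Socs1: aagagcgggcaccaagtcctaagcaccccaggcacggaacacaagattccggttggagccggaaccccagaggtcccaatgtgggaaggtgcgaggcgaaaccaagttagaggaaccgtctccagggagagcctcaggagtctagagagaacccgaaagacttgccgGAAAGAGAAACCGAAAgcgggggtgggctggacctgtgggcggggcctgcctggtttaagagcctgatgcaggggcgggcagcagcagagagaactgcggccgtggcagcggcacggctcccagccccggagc
Il4ra: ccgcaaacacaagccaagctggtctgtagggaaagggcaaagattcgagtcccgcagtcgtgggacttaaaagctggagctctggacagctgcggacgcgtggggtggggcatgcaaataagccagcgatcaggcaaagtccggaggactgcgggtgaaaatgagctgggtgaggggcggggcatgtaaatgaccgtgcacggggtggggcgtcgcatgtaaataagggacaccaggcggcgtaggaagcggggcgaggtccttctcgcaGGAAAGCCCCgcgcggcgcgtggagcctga
Cxcl10: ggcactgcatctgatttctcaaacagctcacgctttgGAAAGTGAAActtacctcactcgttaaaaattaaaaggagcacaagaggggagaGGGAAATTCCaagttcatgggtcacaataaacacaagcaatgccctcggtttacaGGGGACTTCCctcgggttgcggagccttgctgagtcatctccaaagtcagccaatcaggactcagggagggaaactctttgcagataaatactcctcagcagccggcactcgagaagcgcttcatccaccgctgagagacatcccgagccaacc

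Il1rap held GAAAAAGAAA, beginning 20 bases after the start used for its window. The annotated Il1rap gene begins upstream of that start, at position 26581509. Socs1 held the overlapping pair GAAAGAGAAA and GAAACCGAAA before its start. Il4ra held GGAAAGCCCC, the NF-kB letters read on the other strand. Cxcl10, which encodes the interferon-induced chemokine IP-10, held both kinds: GAAAGTGAAA, GGGAAATTCC and GGGGACTTCC. Over all members with a window, the interferon letters were in 7 of 58 (12.1%), against 3.99% of all 27025 genes with a window. They were in 4 of 13 called positive members (Cxcl14, Il1rap, Socs1 and Tnfrsf1b) and 1 of 18 called negative members (Cxcl10). Of the members not called, 2 of 25 (8.0%) held them. The NF-kB letters were in 11 of 58 (19.0%), against 6.31% of all genes. They were in 6 of 18 called negative members (Ccl9, Csf1, Cxcl10, Ifngr2, Il16 and Il4ra) and 1 of 13 called positive members (Il1r1). The letters searched were chosen with the members' values known, so these counts are a description and carry no test. The STAT letters, TTC, any 3 bases and GAA, were in 13 of 58, and in 9.55% of all genes. They were in 4 of 18 called negative members, 3 of 13 called positive members and 6 of 25 members not called.

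Of the 21 chemokines tested, 4 were called positive, 6 negative and 11 were not called. The 15 CC chemokines gave 1 positive and 5 negative calls with a median of -0.059, and the 6 CXC chemokines 3 positive and 1 negative with a median of 0.068. The difference between these classes was not tested. Of everything tested, 18.0% was called positive and 25.4% negative. The counts by role here and below are to be read beside these shares.

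Cxcl12, the chemokine of the receptor CXCR4 and in liver a product of endothelial and stellate cells, ranged from 0.14 to 0.58 in the 8 mice (median 0.38). Its mean was 0.36 ± 0.17 (SD, n = 8; limma, adjusted p = 0.000226). All 8 mice were positive, and the SY and TP mice overlapped. Cxcl14, a chemokine of epithelia, ranged from 0.14 to 0.43 (median 0.23). With a mean of 0.26 ± 0.11 (limma, adjusted p = 0.000241), it too was positive in all 8 mice. Ccl22, which draws regulatory and type 2 helper T cells through CCR4, ranged from 0 to 0.43 and had a mean of 0.20 ± 0.17 (limma, adjusted p = 0.00822). It was positive in 7 mice and 0 in SY521RL. Its partner at CCR4, Ccl17, had a mean of -0.059 (95% interval -0.15 to 0.030) and was not called.

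Ccl2, the chief attractant of monocytes, ranged from -0.48 to 0 (median -0.29) with a mean of -0.28 ± 0.15 (limma, adjusted p = 0.000645). It was negative in 7 mice and 0 in SY522ROB. Its neighbour Ccl7, which also attracts monocytes, had a mean of -0.12 ± 0.13 (limma, adjusted p = 0.0289). That call was lost when SY521RL, SY518Z, TP4215, TP4168 or TP4163 was left out (adjusted p = 0.0649 to 0.0751). Ccl11, Ccl12 and Ccl8, the next genes in the annotated order, were not called, at -0.067, 0.083 and 0.051.

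Ccl9, a chemokine of myeloid cells found in rodents, was negative in all 8 mice, from -0.38 to -0.069, with a mean of -0.20 ± 0.11 (limma, adjusted p = 0.00126). Ccl6, its close relative and neighbour, had a mean of -0.24 ± 0.30 (limma, adjusted p = 0.033), the widest spread of the members. Here SY518Z stood apart at 0.43, positive on both of its arrays, while the other 7 mice lay between -0.54 and -0.14. Without SY518Z the mean was -0.34 and the adjusted p 0.000247. The call was lost without SY521RL, TP4168, SY524ROB+L, TP4205, SY522ROB or TP4163 (adjusted p = 0.0675 to 0.0900). Ccl5, or RANTES, a T cell and monocyte attractant on the other side of Ccl9, had a mean of -0.085 ± 0.048 (limma, adjusted p = 0.0229). It did not pass without SY518Z or TP4163 (adjusted p = 0.0524 and 0.0604), nor with all 16 arrays and the mouse as a random block (limma, adjusted p = 0.0777). Ccl3 and Ccl4, which follow in the order, were not called, at -0.016 and 0.012.

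The CXC pair induced by interferon gamma, Cxcl9 and Cxcl10, lay on opposite sides although only Art3 stands between them in the annotation. Cxcl9 had a mean of 0.15 ± 0.17 (limma, adjusted p = 0.0287) and Cxcl10 of -0.11 ± 0.11 (limma, adjusted p = 0.0322). Cxcl9 was positive in 6 mice, highest in TP4215 at 0.49, and Cxcl10 was negative in 6. Neither call was firm: Cxcl9 lost it without SY521RL, TP4168, TP4205 or TP4163 (adjusted p = 0.0513 to 0.0775). Cxcl10 lost it without SY521RL, SY518Z, TP4168, TP4205 or TP4163 (adjusted p = 0.0696 to 0.0835). Among the other 11 chemokines, none of them called, Ccl20 lay lowest at -0.12 and Ccl12 highest at 0.083. Chemokines have near relatives, and a spotted cDNA can bind a relative's transcript as well, which these data do not separate.

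**Figure D3:**
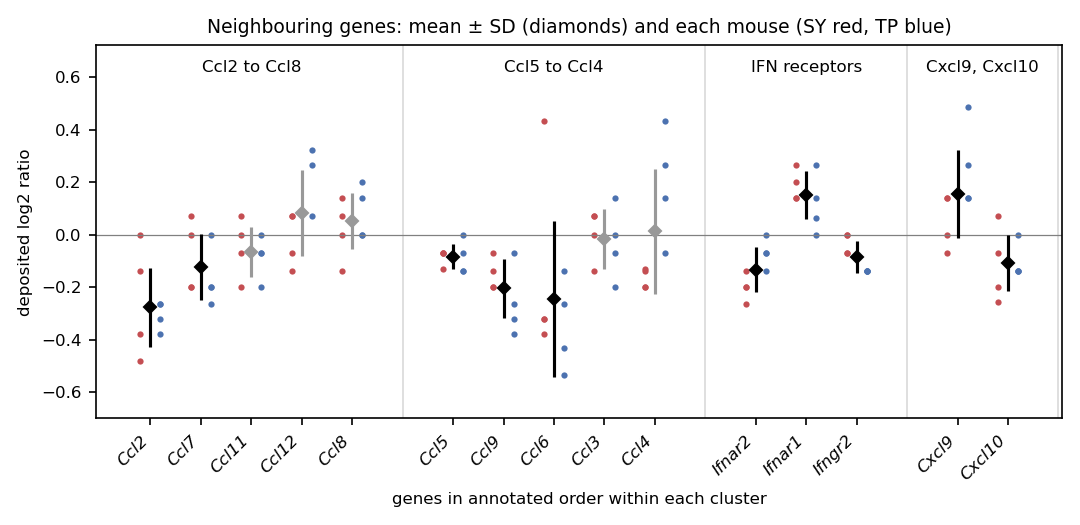
Log2 ratio (vertical axis, log2 units) of members that stand next to each other in the annotated gene order, or with 1 gene between. Each mouse is a point (SY red, TP blue), and the mean and SD are a diamond and bar, grey where not called. Ccl9 and Ccl6 are both negative, while Cxcl9 and Cxcl10 and the interferon receptors Ifnar1 and Ifnar2 lie on opposite sides of 0.

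The 2 chemokine receptors tested, Ccr7 and Cxcr5, which guide lymphocytes within lymphoid tissue, were not called. Ccr7 ranged from -0.069 to 0.14 with a mean of 0.026 (95% interval -0.045 to 0.096). Cxcr5 had a mean of 0.0093 (95% interval -0.090 to 0.11).

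Among the 11 interleukins, 3 were called positive and 3 negative. Il18, an interleukin made by Kupffer cells that calls forth interferon gamma, was positive in 7 mice and 0 in SY521RL, with a highest value of 0.32. Its mean was 0.17 ± 0.12 (limma, adjusted p = 0.00501). Il2, the T cell growth factor, and Il12b, a shared chain of interleukins 12 and 23, were positive at 0.15 ± 0.16 and 0.15 ± 0.11 (limma, adjusted p = 0.0256 and 0.00857). Il2 did not pass without TP4215, TP4168, SY524ROB+L or TP4205 (adjusted p = 0.0559 to 0.0751).

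Il16, a ligand of CD4, was negative in all 8 mice, from -0.20 to -0.069, with a mean of -0.13 ± 0.043 (limma, adjusted p = 0.00213). Most of its array values lay exactly 1 step below 0, so the rounding limits what its SD shows. Il1b, the inflammatory interleukin released by activated macrophages, ranged from -0.49 to 0.069 (median -0.23). Its mean was -0.18 ± 0.19 (limma, adjusted p = 0.0248). Only SY524ROB+L and SY522ROB were positive. The call was lost when SY518Z or any 1 of the TP mice was left out (adjusted p = 0.0517 to 0.0655). Il13, a type 2 interleukin, had a mean of -0.15 ± 0.14 (limma, adjusted p = 0.0188) and did not pass without TP4205 (adjusted p = 0.0534). Il4, its neighbour on the chromosome, was not called at -0.059 (95% interval -0.15 to 0.030). The other interleukins not called lay between -0.085 for Il27 and 0.050 for Il7. The 2 probes of Il7 lay on opposite sides. One gave 0.084 in 8 mice, and the other, with values on 7 arrays, gave -0.10 in 4 mice. The antagonist Il1f5 and the binding protein Il18bp, which holds Il18 inactive, were not called either, at -0.034 (95% interval -0.11 to 0.039) and -0.018.

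The interleukin receptors held the largest difference of all members. Il1rap, the accessory chain without which interleukin 1 and interleukin 33 receptors do not signal, ranged from 0.14 to 0.63 (median 0.43). Its mean was 0.40 ± 0.20 (limma, adjusted p = 0.000244). Every mouse was positive, and SY524ROB+L was the lowest. Its partner Il1r1, the receptor that binds interleukin 1, had a mean of 0.28 ± 0.29 (limma, adjusted p = 0.0147). TP4215 and TP4205 were high at 0.68 each, while TP4168 was at 0 and SY518Z at -0.069. The ligand Il1b, as given above, was on the other side.

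Il2rb, the signalling chain shared by interleukins 2 and 15, was positive in 7 mice with a mean of 0.18 ± 0.11 (limma, adjusted p = 0.00222). Il4ra, the receptor chain of interleukins 4 and 13, was negative in all 8 mice between -0.26 and -0.14. Its mean was -0.17 ± 0.047 (limma, adjusted p = 0.000416). Most of its array values lay exactly 1 step below 0, so the rounding limits what its SD and adjusted p show. Of the other negative calls, Il7r, a receptor of lymphocyte survival, had a mean of -0.18 ± 0.18 (limma, adjusted p = 0.0168). All 4 TP mice lay at -0.26 or lower, and the SY mice between -0.26 and 0.069. Il18rap, the accessory chain for Il18, and Il3ra were at -0.13 ± 0.10 and -0.095 ± 0.051 (limma, adjusted p = 0.0148 and 0.015). Il6st, or gp130, through which interleukin 6 drives the acute phase response of hepatocytes, was not called. Both of its probes lay near 0, with a gene mean of -0.017 (95% interval -0.077 to 0.043). Il13ra1, a partner chain of Il4ra, had a mean of -0.059 (95% interval -0.15 to 0.032) and was not called. Il27ra was not called at -0.059, and TP4215 stood apart at -0.54 while the other 7 mice lay between -0.069 and 0.20.

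Neither TNF ligand tested was called. Tnf ranged from -0.32 to 0.20 with a mean of -0.099 ± 0.18 (95% interval -0.21 to 0.017; limma, adjusted p = 0.151). All 4 TP mice were negative, at -0.26 to -0.14, and the SY mice lay on both sides. Without SY524ROB+L the adjusted p was 0.0294. Tnfsf11, or RANKL, measured in 6 mice, had a mean of 0.11 (95% interval -0.033 to 0.25). In the same way 5 other members passed only without 1 mouse or another: Ccl20 (adjusted p = 0.0324), Il15 (0.0496) and Il17ra (0.0305) without SY524ROB+L, Il27 without it or SY522ROB (lowest 0.0178), and Il2ra without TP4215 (0.0397).

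The 2 receptors of TNF lay on opposite sides. Tnfrsf1a, the receptor with a death domain found on most cells, had a mean of -0.14 ± 0.14 (limma, adjusted p = 0.027). Tnfrsf1b, the receptor found mainly on immune and endothelial cells, had a mean of 0.14 ± 0.079 (limma, adjusted p = 0.00487). Tnfrsf1b was positive in 7 mice and 0 in SY518Z. The call of Tnfrsf1a did not hold without SY521RL, SY518Z, SY524ROB+L or SY522ROB (adjusted p = 0.0516 to 0.0755). Tnfrsf23, a decoy receptor of the TRAIL group with close relatives beside it, was positive in all 8 mice, from 0.069 to 0.49. Its mean was 0.23 ± 0.15 (limma, adjusted p = 0.00175). Tnfrsf4, or OX40, a costimulator of activated T cells, was negative in all 8 mice, from -0.32 to -0.13. Its mean was -0.20 ± 0.067 (limma, adjusted p = 0.000273). The 4 other receptors of the family, not called, lay between -0.050 for Tnfrsf17 and 0.12 for Tnfrsf11b.

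Tnfaip8l2, or TIPE2, which restrains inflammatory signalling in immune cells, had the lowest adjusted p of the members. It lay between -0.38 and -0.20 in all 8 mice, with a mean of -0.28 ± 0.052 (limma, adjusted p = 1.82e-05). Most of its array values were exactly -0.263, so the rounding limits what its SD and adjusted p show. SY and TP mice met at -0.26. Tnfaip6, a hyaluronan-binding protein induced by TNF, was not called at -0.016.

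All 4 interferon receptor chains were called, 3 of them negative. Ifngr1, the chain that binds interferon gamma, ranged from -0.49 to -0.069 (median -0.23) and was negative in all 8 mice. Its mean was -0.27 ± 0.15 (limma, adjusted p = 0.000793). Its partner Ifngr2 was smaller, at -0.086 ± 0.061 (limma, adjusted p = 0.0298), and did not pass when any 1 of the TP mice was left out (adjusted p = 0.0517 to 0.0751). For type I interferon, Ifnar2 had a mean of -0.13 ± 0.086 (limma, adjusted p = 0.00634) and was negative in 7 mice. Ifnar1, the other chain of the same receptor, had a mean of 0.15 ± 0.091 (limma, adjusted p = 0.00404) and was positive in 7 mice. No mouse was positive for Ifnar2 and none was negative for Ifnar1, so these 2 chains did not overlap except at 0. In the TP mice alone neither passed (limma, adjusted p = 0.127 for Ifnar1 and 0.146 for Ifnar2). In the SY mice alone both did (limma, adjusted p = 0.0175 and 0.0148). In the annotated order Ifnar2, Ifnar1 and Ifngr2 form a cluster, with Il10rb between the first and the second. Ifngas1, a noncoding RNA gene near the interferon gamma gene and matched by Entrez identifier, was not called at 0.074 (95% interval -0.032 to 0.18).

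Among the colony-stimulating factors, Csf3, which drives neutrophil production, was positive in 7 mice and 0 in TP4215, with a mean of 0.13 ± 0.086 (limma, adjusted p = 0.00634). Csf1, the growth factor of macrophages, had a mean of -0.11 ± 0.12 (limma, adjusted p = 0.0411). Csf1 was lowest in SY518Z at -0.32, and its call was lost when SY521RL, SY518Z or any 1 of the TP mice was left out (adjusted p = 0.0653 to 0.0994). Csf2 was not called at 0.051. Csf2rb2, a beta chain of the interleukin 3 receptor whose near copy Csf2rb may share the probe, had a mean of -0.12 ± 0.091 (limma, adjusted p = 0.0154). Csf3r, the receptor of Csf3, was not called at -0.066, with TP4215 apart at -0.32 and the others between -0.069 and 0.069.

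SOCS proteins are induced by cytokine signalling and shut it down. Of the 7 members, 2 were called, both positive. Socs1, the main brake on interferon gamma signalling in liver, was positive in all 8 mice, from 0.069 to 0.32. Its mean was 0.18 ± 0.086 (limma, adjusted p = 0.00102). Socs6 had a mean of 0.24 ± 0.12 (limma, adjusted p = 0.000557), 0 in SY524ROB+L and positive in the other 7. Its 2 probes differed: 1 gave 0.30 in 8 mice, and the other, with values on 7 arrays, 0.034 in 4 mice, all SY. The gene values of the SY mice (mean 0.16) thus hold both probes, and those of the TP mice (mean 0.32) only the first. Socs3, the brake on interleukin 6 signalling, had a mean of -0.068 (95% interval -0.14 to 0.0084; limma, adjusted p = 0.137). Socs2, which acts on growth hormone signalling, had a mean of 0.034 (95% interval -0.055 to 0.12), and neither was called. Socs5 is described with the SY and TP mice.

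The genes around the members were counted in lists, without a test of any list. Of everything tested, 18.0% was called positive and 25.4% negative, with a median of -0.017. Of 17 JAK and STAT signalling genes, 0 were positive and 6 negative, median -0.052. Pias4 and Pias3, inhibitors of STAT factors, were farthest from 0 at -0.24 and -0.18. Of 23 genes of TNF, interleukin 1 and NF-kB signalling, 4 were positive and 10 negative, median -0.084. Nfkbia, the inhibitor of NF-kB, had a mean of -0.27 and Tnip1, another inhibitor, -0.23, against 0.25 for the kinase Map3k7 and 0.25 for Birc2. Interferon-induced genes gave 7 positive and 3 negative of 26, median 0.047. The positive end held Iigp1 at 0.36 and Ifit3 at 0.31, and the negative end B2m at -0.39 and Irf8 at -0.29. Acute phase proteins, the hepatocyte's answer to interleukins 1 and 6, gave 6 positive and 5 negative of 15. Their range was wider than that of the members, from -0.82 for Lcn2 and Hpx to 0.50 for Mt1 and 0.38 for Mt2. Cytokines and receptors outside the name rule gave 7 positive and 7 negative of 30, with Mif at -0.44, Ppbp at -0.32, Vegfa at 0.38 and Ackr4 at 0.35.

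Markers of the cells that make or receive these signals were read in the same fit. Their counts are to be read beside the 18.0% positive and 25.4% negative calls of everything tested. Of 17 Kupffer cell and macrophage markers, 11 were negative and 2 positive, median -0.17, with a mean over the list of -0.32 to 0.072 in single mice. Cd68 was at -0.65 and Lgals3 at -0.58, and the positive calls were Spi1 at 0.28 and Cd163 at 0.17. Clec4f, the defining Kupffer cell marker, was at -0.050 and Adgre1, a general macrophage marker, at -0.026, neither called. Of 11 lymphocyte markers, 6 were negative and 1 positive, median -0.093, with single-mouse means of -0.15 to 0.0070; Cd52 was at -0.40, Cd8a at -0.17 and Cd3d at 0.15. Of 6 neutrophil markers, Csf3r being counted with the members, 2 were negative and 0 positive. Endothelium gave 2 negative of 8 (Eng and Cdh5), stellate cells 6 negative of 11 with a median of -0.12 (Acta2 and Col1a1 among them), and neither list a positive call. Hepatocyte markers gave 3 positive and 1 negative of 7, median 0.12, with Asgr1 at 0.41, Apob at 0.12 and Apoa1 at -0.52. Members that myeloid cells make or answer to went both ways. The examples given here were not picked by a rule and are not a full list. Ccl2, Ccl5, Ccl6, Ccl7, Ccl9, Csf1 and Il1b were called negative, and Il18, Il12b and Ccl22 positive. Ccl3, Ccl4, Csf3r and Tnf were not called. The part of the marker shifts in the members' ratios was not tested.

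The SY and TP mice were compared because that label is the only one that splits the treated mice. It nearly coincides with a code in the array titles: arrays of SY mice carry c3z and those of TP mice bl7, and SY518Z has 1 of each. Apart from SY518Z, mouse series and array code cannot be told apart. Of the 77 members 4 differed (limma, 4 against 4 mice, adjusted p under 0.05), or 5.19%, against 5.7% of everything tested, and 24 did at an unadjusted p under 0.05, as did 24.8% of everything tested. All 4 were lower in SY, the side of 4.41% of everything tested.

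Socs5, a SOCS protein of T helper cells, was at -0.32, -0.069, -0.38 and -0.26 in SY521RL, SY518Z, SY524ROB+L and SY522ROB. In TP4215, TP4168, TP4205 and TP4163 it was at 0.26, 0.14, 0.20 and -0.069. The difference, SY minus TP, was -0.39 (limma, 95% interval -0.57 to -0.21, adjusted p = 0.0246), and the groups met only in SY518Z and TP4163. Ccl4 was at -0.20, -0.13, -0.20 and -0.14 in the SY mice and at 0.43, 0.14, 0.26 and -0.069 in the TP mice, taken in the same orders. The difference was -0.36 (limma, 95% interval -0.55 to -0.16, adjusted p = 0.0406), with every SY mouse below every TP mouse.

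Tnfrsf1a was at -0.32, -0.14, -0.26 and -0.32 in the SY mice and at 0, -0.069, 0 and 0 in the TP mice. The groups did not overlap, and the difference was -0.24 (limma, 95% interval -0.37 to -0.12, adjusted p = 0.035). Its mean was -0.26 in the SY and -0.017 in the TP mice. Il18 was at 0, 0.069, 0.069 and 0.14 in the SY mice and at 0.26, 0.32, 0.32 and 0.20 in the TP mice, again without overlap. The difference was -0.21 (limma, 95% interval -0.33 to -0.088, adjusted p = 0.0483). In all, 7 members did not overlap between SY and TP, where 10.3% of everything tested did not.

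These 4 calls depended on single mice. Without SY521RL, TP4215, TP4168, SY524ROB+L, TP4205 or SY522ROB, 0 members differed (adjusted p of the 4 between 0.0556 and 0.147). Without TP4163 there were 8, against 6.88% of everything tested. The 4 then had an adjusted p of 0.0114 to 0.0506 (limma), so not all of them passed. Without SY518Z, the mouse with 1 array of each code, there were 14, against 15.3% of everything tested. On its c3z and its bl7 array SY518Z gave -0.26 and 0 for Ccl4, -0.14 and 0 for Socs5, 0 and 0.14 for Il18, and -0.14 on both for Tnfrsf1a. With the 16 arrays as values and the mouse as a random block, 7 members differed between SY and TP, against 7.7% of everything tested. Grouping the arrays by code in place of mouse series gave 21 members (limma with the mouse as a random block, 20.4% of everything tested). The part of the code in the differences was not tested further.

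**Figure D4:**
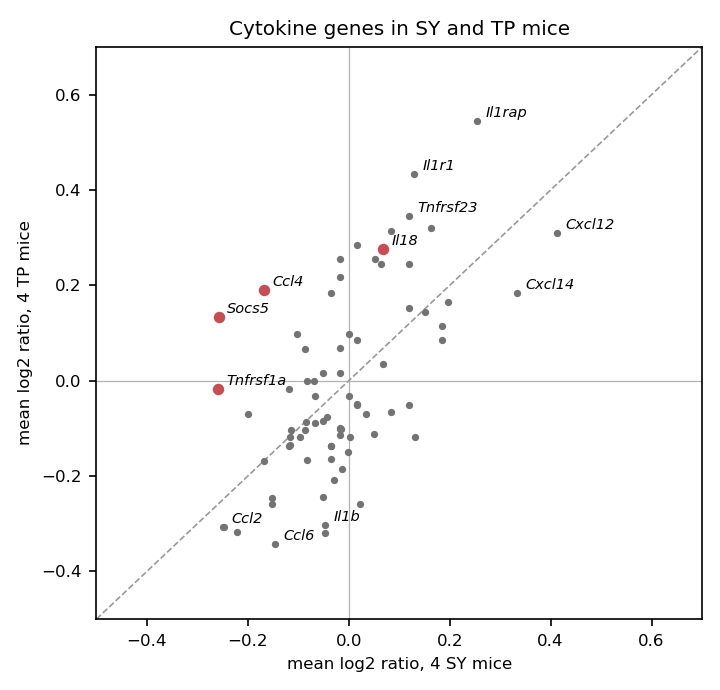
Mean log2 ratio of each member in the 4 SY mice (horizontal axis) against the 4 TP mice (vertical axis), both in log2 units, with a dashed line of equal values; the 4 called members are the larger red points. Socs5, Ccl4, Tnfrsf1a and Il18, the 4 members that differed, lie above the line, at SY means of -0.26, -0.17, -0.26 and 0.069 and TP means of 0.13, 0.19, -0.017 and 0.28.

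Il1rap had a mean of 0.25 in the SY and 0.54 in the TP mice, Cxcl12 of 0.41 and 0.31, Tnfaip8l2 of -0.25 and -0.31, and Ccl2 of -0.25 and -0.31. These members were picked for their means over the same 8 mice and both series were read against control-diet RNA, so the values are a description only.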

How the data were processed

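The authors deposited log2 ratios of the Cy5 and Cy3 channels of spotted cDNA arrays in their value table. Per the labels, Cy3 held control-diet RNA and Cy5 that of 1 treated mouse, and the same RNA was hybridised to 2 arrays. The sources used here do not state the background treatment, the normalization, the direction of the ratio or why cells are blank. All 144660 values were logarithms of ratios written to 1 decimal (tolerance 0.01 on the ratio times 10). They were not normalized again, since the median was 0 on every array. The authors' table gives no depth or intensity; the number of mice limits the precision.

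Genes were named from the platform annotation: 7407 probes had 1 symbol, 437 several and 1752 none. Probes of a gene were averaged within an array, then the 2 arrays of a mouse (n = 8). Means were tested against 0, and SY against TP, with limma 3.58.1 under R 4.3.3 (moderated fit by eBayes, two-sided, p-values adjusted by Benjamini-Hochberg over 8348 genes and unnamed probes with values in at least 6 mice). Whether the mice were littermates or cage mates is not stated. The scripts were tested on simulated data.

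The members and lists were chosen with earlier results of these data known. Members were named if called with 1 sign in all mice, farthest from 0 in a role without such a member, called between SY and TP, or in a fixed liver set; the other called members, and those with a mouse apart or a call gained without 1 mouse, were named after their values were seen. From each list up to 2 called genes on each side were named. RefSeq (GRCm38.p6) gave gene order and promoter windows.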

Additional observations from a re-analysis of the deposited data

Results flagged for a closer look

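In 4 of the 77 members looked at, 1 mouse stood apart from the other 7 by a Dixon gap test, which flags about 1 in 20 groups by chance. Ccl6 was at 0.43 in SY518Z, where the other mice lay between -0.54 and -0.14. Il27ra was at -0.54 in TP4215, with the others between -0.069 and 0.20. Csf3r was at -0.32 in TP4215, with the others between -0.069 and 0.069. Il18bp was at 0.20 in SY524ROB+L, with the others between -0.14 and 0. The 2 arrays of the mouse concerned are hybridisations of 1 RNA, so they do not separate the mouse from its RNA sample.

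The diet ratio differed between SY and TP mice in 4 members (limma, 4 against 4 mice), 5.19% of them, against 5.7% of everything tested. Leaving out any 1 of 6 of the 8 mice left 0 members called. SY minus TP was -0.39 for Socs5, -0.36 for Ccl4, -0.24 for Tnfrsf1a and -0.21 for Il18.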

How the results depend on the processing

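Of 37 members called against 0, the count was 0 (0 positive, 0 negative) for a minimum difference of 1.2-fold, where 123 of everything tested passed instead of 3622. It was 14 (7 and 7; 1805 of everything tested) with the control RNA as a mix of 7 varying mice. It was 16 (8 and 8) in SY mice only and in arrays of code c3z only, with 2159 and 2191 of everything tested. In TP mice only it was 31 (13 and 18; 3168 of everything tested), and in arrays of code bl7 only 38 (12 and 26; 3814). Each of these fits to part of the mice or arrays has 4 or 5 mice, and why the counts differ was not tested. The fits limited to c3z or to bl7 arrays were added after seeing the data. The other alternatives (quantile normalization, centring on the mean, single probes, first or second arrays, filters on blanks, robust moderation, the mouse as a random block, each mouse left out) kept the counts within 1.5 times. Centring arrays on the median and scaling them changed nothing, because all had the same median and the same median absolute value. No called member turned its sign in 925 values; 195 missed the threshold.

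The members differing between SY and TP, 4 in the main test, were 7 (643 of everything tested) with the mouse as a random block on 16 arrays and 21 (1704 of everything tested) by array code. Leaving out 1 mouse gave 0 to 14 members and 55 to 1278 of everything tested, against 476.

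The alternatives were followed for 14 members not called, those named by rule or with a mouse apart, and their signs turned in 21 values. For the other members not called, turned signs were not counted. Ccl4 was -0.018 under quantile normalization, -0.060 on second arrays, -0.17 in SY mice (limma, adjusted p = 0.016), -0.20 on c3z arrays (limma, adjusted p = 0.0127) and -0.048 to 0.042 without 1 mouse. In SY mice and on c3z arrays Ccr7 was -0.017 in both, Ifngas1 -0.034 in both and Il18bp 0.016 and 0.033, and on c3z arrays Tnf was 0.0015. In TP mice and on bl7 arrays Il6st was 0.017 and 0.014, Socs2 -0.050 and -0.040, and Socs5 0.13 and 0.11. Il27ra was -0.096 to 0.0090 without 1 mouse, highest without TP4215. The cause was not tested. No paired analysis was possible because the control RNA has no samples of its own and SY and TP mice share no numbers.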
